A study of Homo sapiens with 23 samples.

Results

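The genes described here are 32 members of the DNA repair pathways that remove crosslinks, broken ends, mismatched bases and bulky lesions. They were taken as a list of symbols, and all 32 were among the 16371 genes with enough reads to be tested. FANCA, RAD23B and MSH6 were set apart within the list, because the study displayed them as genes that lie near bound SVAs and change with doxycycline. That choice rests partly on these same RNA libraries, so their change is described here and is no independent evidence.

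The Fanconi anemia pathway unhooks crosslinks that join the strands of DNA: a core complex attaches ubiquitin to the FANCD2 and FANCI pair, and BRCA1, BRCA2, PALB2 and their partners then rebuild the broken strand by recombination. Mismatch repair finds wrongly paired bases through MutS proteins such as MSH3 and MSH6, passes them to MutL proteins such as PMS1, PMS2 and MLH3, and lets the exonuclease EXO1 remove the strand. Nucleotide excision repair recognizes distorted DNA through XPC with RAD23B or through DDB2, opens it with the helicases ERCC2 and ERCC3, and cuts it with ERCC5 and with the pair of ERCC4 and ERCC1. Many of these genes are transcribed most in cells that replicate their DNA, and stem-like cells divide fast.

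NCCIT is an embryonal carcinoma cell line with features of stem cells. In the SCi-NCCIT derivative, a piggyBac transgene gives dCas9-KRAB, a repressor directed by guides, under a doxycycline-inducible promoter, and a further transgene expresses a pair of sgRNAs against SVAs all the time. The guides match a sequence that SVAs share with LTR5Hs, the promoter repeats of an endogenous retrovirus, so the repressor can be led to both kinds of element. SVAs are primate retrotransposons, and a list of 751 SVA intervals described as de-repressed in these cells was used here. RNA was measured in 3 libraries of cells without doxycycline and 3 libraries of cells that received 2 µg/mL of doxycycline over 72 hours. Controls thus carry both transgenes, the guides and the drug selection, and differ from treated cells in the drug and in the induced repressor. Cells given doxycycline without guides or without dCas9-KRAB were not among the samples used, so effects of the drug, of SVA repression and of LTR5Hs repression cannot be told apart. The line was selected from stable clones, and nothing in the labels says that the replicates are separate cultures, so the p-values measure the spread between these libraries, which may be technical. ChIP-seq peaks of H3K9me3, the mark that KRAB brings, were available for 2 libraries of each condition and 1 library of NCCITs without dCas9-KRAB, peaks of YY1 for 2 libraries of each condition, and peaks of OCT4 for 1 library of each.

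The RNA libraries held between 14683468 and 43443469 estimated counts on genes without doxycycline, with the lowest total in replicate 1, and between 44680610 and 47862394 with doxycycline. ZNF10, whose KRAB domain is the one commonly fused to dCas9, stood at 10.0, 11.8 and 10.7 counts per 1000000 (CPM) without doxycycline and at 362, 374 and 459 CPM with it, a log2 fold change of 5.19 ± 0.12 (SE), with an edgeR adjusted p of 5.6e-08. These reads do not separate ZNF10 from the transgene. The stem cell genes POU5F1, SOX2 and NANOG were present in every library, at 168 to 250 transcripts per 1000000 (TPM, a level per length), 259 to 371 TPM and 29.2 to 54.4 TPM.

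With doxycycline, 6 of the 32 repair genes fell and 1 rose. Those that fell were FANCA, BRCA1, PALB2, XRCC2, MSH3 and EXO1, by 0.30 to 0.40 on the log2 scale, and the gene that rose was ERCC2. Of all genes tested, 17.5% were called in either direction, 8.48% lower and 8.97% higher, while the members called lower make up 18.8% of the list and the member called higher 3.12%. At an unadjusted p under 0.05 there were 11 members, 34.4% of the list, against 32.5% of all genes. The median log2 fold change was -0.04 over the members and -0.0025 over all genes, and 20 of the 32 members had a value below 0. In RNA from bulk cells, fewer cells of a type and less RNA per cell cannot be told apart. All 3 doxycycline libraries lay below all 3 others in 7 members, or 21.9% of the list (17.8% of all genes), and above them in 3 members, or 9.38% (19.2% of all genes). The count of called members depended on single libraries: it was 2 without doxycycline replicate 2, where FANCA and ERCC2 passed, and 3 without no doxycycline replicate 2, where FANCA, XRCC2 and ERCC2 passed. In these fits 8.39% and 8.83% of all genes were called, so the count fell over all genes too. With counts scaled by transcript length it was 4, beside 11.4% of all genes, and FANCA, BRCA1 and EXO1 did not pass.

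Among the 7 genes of the Fanconi core complex, FANCA fell and none of the other 6 passed the test. That is 14.3% of this group called lower, beside 8.48% of all genes. FANCA, which holds the core complex together with FANCG, lies on the minus strand of hg19 at chr16:89793091-89883385. It was read at 50.4, 48.9 and 48.1 CPM without doxycycline and at 40.1, 39.3 and 39.7 CPM with it. The groups did not overlap, and each was tight, at 49.1 ± 1.1 CPM (SD, n = 3) against 39.7 ± 0.37 CPM. The log2 fold change was -0.30 ± 0.05 (SE), or 0.810 of the control, with an edgeR adjusted p of 0.0041. It passed in each of the 6 fits that left out a library, with adjusted p from 0.0085 to 0.029. Scaled by transcript length it did not pass, with a log2 fold change of -0.15 and an adjusted p of 0.24, and in TPM, which also counts per length, FANCA stood at 31.0 ± 1.9 and 27.0 ± 0.60. The ubiquitin ligase FANCL had a log2 fold change of 0.10. The core subunits FANCC, FANCE, FANCF and FANCG had log2 fold changes of 0.11, -0.08, -0.04 and -0.0038, and the DNA translocase FANCM one of -0.19. Adjusted p from edgeR ran from 0.26 to 0.98 over these 6 genes.

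FANCD2 and FANCI, the clamp that the core complex marks, did not pass either, with edgeR or DESeq2, and neither had an unadjusted p under 0.05. FANCD2 was read at 35.2, 22.8 and 22.6 CPM without doxycycline and at 27.5, 23.4 and 22.5 CPM with it, so the highest value was that of the most shallow library. FANCI stood at 167, 181 and 174 CPM against 154, 174 and 180 CPM. Their log2 fold changes were -0.11 ± 0.16 (SE) and -0.04 ± 0.07, with edgeR adjusted p of 0.68 and 0.74.

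Of the 8 genes that act in recombination, BRCA1, PALB2 and XRCC2 fell, which is 37.5% of this group, and none rose. Over all genes tested, 8.48% were called lower and 8.97% higher. BRCA1, a scaffold that brings repair proteins to broken ends, was read at 84.0, 87.3 and 80.6 CPM without doxycycline and at 56.2, 66.8 and 72.5 CPM with it. All 3 treated libraries lay below all 3 controls, with a wider spread among the treated, and the log2 fold change was -0.36 ± 0.09 (SE), with an edgeR adjusted p of 0.021. Scaled by transcript length it was -0.22, with an edgeR adjusted p of 0.16. PALB2, the link between BRCA1 and BRCA2, stood at 24.2, 26.0 and 23.9 CPM without doxycycline and at 18.9, 19.6 and 20.8 CPM with it. Its groups did not overlap, and its log2 fold change was -0.32 ± 0.07, with an edgeR adjusted p of 0.013. XRCC2, which also acts in recombination, fell most among all members, from 42.8, 47.4 and 44.5 CPM to 31.6, 32.8 and 38.0 CPM. Its log2 fold change was -0.40 ± 0.08, with an edgeR adjusted p of 0.0095, and again no treated library reached a control. Without doxycycline replicate 2, the adjusted p of these 3 genes rose to 0.066, 0.059 and 0.055.

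The other 5 genes of this group did not pass. BRIP1, a helicase that binds BRCA1, stood at 36.0, 44.3 and 40.3 CPM without doxycycline and at 29.6, 34.4 and 38.0 CPM with it, and BRCA2, the partner of PALB2, at 14.8, 22.4 and 19.9 CPM against 12.1, 15.9 and 19.3 CPM. Groups overlapped in both genes, with log2 fold changes of -0.25 ± 0.10 (SE) and -0.29 ± 0.18 and edgeR adjusted p of 0.13 and 0.30. RAD51C, RAD51D and XRCC3 differed by 0.0097, 0.0035 and -0.02 on the log2 scale, with SEs of 0.07 to 0.09.

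Of the 6 mismatch repair genes, MSH3 and EXO1 fell and none rose. The falls are 33.3% of this small group, beside 8.48% of all genes called lower and 8.97% called higher. MSH3, which with its partner binds larger loops of unpaired bases, stood at 36.0, 35.0 and 35.0 CPM without doxycycline and at 26.4, 27.1 and 32.1 CPM with it, a log2 fold change of -0.31 ± 0.08 (SE) with an edgeR adjusted p of 0.031. The exonuclease EXO1 went from 41.4, 47.7 and 44.7 CPM to 32.7, 35.0 and 39.7 CPM, a log2 fold change of -0.32 ± 0.08 with an edgeR adjusted p of 0.029. Neither gene had a treated library above a control. These were also the least stable calls: MSH3 did not pass in 4 and EXO1 in 4 of the 6 fits that left out a library, with adjusted p up to 0.13 and 0.12. In 18 of the 32 members, an annotated gene on the opposite strand overlaps the genomic span of the most abundant transcript, introns included. FANCA, BRCA1, PALB2, MSH3 and ERCC2 are among them. The strand setting of the counting is not given in the sources used here. Reads may thus have been split between pairs whose exons overlap, and overlap of exons was not checked.

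MSH6, a MutS protein that recognizes single mispaired bases, was the most abundant member, with 113 ± 6.6 TPM (SD, n = 3) without doxycycline. It lies at chr2:47922669-48037202 of hg19, on the plus strand, and was read at 217, 163 and 218 CPM without doxycycline and at 206, 220 and 224 CPM with it. The lone low value was no doxycycline replicate 2, and the groups overlapped. The log2 fold change was 0.12 ± 0.10 (SE), with an edgeR adjusted p of 0.45, and it was -0.0040 without that library. The MutL genes PMS1, PMS2 and MLH3 differed by -0.09, -0.09 and 0.07 on the log2 scale, with edgeR adjusted p of 0.30 to 0.73. PMS2 has 14 annotated copies, whose estimated counts came to 77.1% of its own, so its value depends on how reads were divided among them.

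Nucleotide excision repair was the only group of members with a called rise, ERCC2, and none of its 9 genes was called lower. The 1 rise is 11.1% of this group, near the 8.97% of all genes called higher, while 8.48% of all genes were called lower. ERCC2, a helicase of TFIIH, was read at 87.3, 83.6 and 82.8 CPM without doxycycline and at 104, 98.9 and 101 CPM with it. All treated libraries lay above all controls, the log2 fold change was 0.26 ± 0.05 (SE), and the edgeR adjusted p was 0.0090. It passed in all 12 alternative fits, the only member that did so. RAD23B, which steadies XPC on damaged DNA, lies at chr9:110045418-110094473 of hg19, on the plus strand, and stood at 190, 203 and 201 CPM without doxycycline and at 171, 179 and 183 CPM with it. Its groups did not overlap, but its log2 fold change of -0.16 ± 0.05 had an edgeR adjusted p of 0.069, just outside the threshold. It passed with DESeq2 (adjusted p of 0.040) and without no doxycycline replicate 1 (0.045).

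The damage-binding protein XPA stood at 7.23, 6.40 and 6.53 CPM without doxycycline and at 8.20, 7.91 and 7.55 CPM with it, and the nuclease subunit ERCC1 at 63.5, 60.8 and 63.9 CPM against 71.0, 72.1 and 65.8 CPM. Treated libraries lay above controls in both genes, with log2 fold changes of 0.24 ± 0.09 (SE) and 0.15 ± 0.06, but the edgeR adjusted p was 0.11 and 0.095. XPC, DDB2, ERCC3, ERCC4 and ERCC5 had log2 fold changes of 0.08, 0.15, 0.03, -0.04 and -0.0062, all with overlapping groups and edgeR adjusted p of 0.32 to 0.97. ERCC4, the partner of ERCC1 in the nuclease, stood at 15.7, 19.2 and 18.5 CPM against 16.2, 16.9 and 19.2 CPM.

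Compared with the other 29 members, the 3 genes the study drew near SVAs did not stand at either end of the range. FANCA, RAD23B and MSH6 had log2 fold changes of -0.30, -0.16 and 0.12, against a median of -0.04 and a range from -0.40 to 0.26 for the other 29, of which 5 were called lower and 1 higher. Of the 3 genes, FANCA passed the test. Their median lay 0.12 below that of the other members on the log2 scale, and between 0.11 and 0.17 below it under the 12 alternative fits.

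To see how close SVAs lie, the distance from the start of each member's most abundant transcript to the nearest of the 635 de-repressed SVAs on assembled chromosomes was taken. It was at most 50 kb for RAD23B, PMS1, BRCA1 and FANCI, that is 12.5% of the members against 3.78% of the other genes, and at most 100 kb for PALB2 and MSH6 in addition. BRCA1 and PALB2 are the called genes among these 6. The other 116 intervals of the list lie on alternative contigs, and SVAs that are not on the list were not analysed here. With that limit, the nearest SVA to FANCA lay 5081422 bp away. The median distance was 1819198 bp over the members and 1449750 bp over the other genes, so by the median the members lay farther away. Near RAD23B, SVA_D_r706 is an interval of 11 bp that lies 10155 bp upstream. Near PMS1, SVA_B_r67 lies 24013 bp upstream but 2355 bp from the start of OSGEPL1, whose log2 fold change was -0.0076. Near BRCA1, SVA_F_r866 lies 33938 bp upstream of the start in use, within the longest annotated BRCA1 record, and 11588 bp from the start of NBR1, whose log2 fold change was -0.01. Near MSH6, SVA_D_r170 lies 61062 bp upstream of the start in use, again within the gene record. Near PALB2, SVA_C_r234 lies 57036 bp downstream of the start in use. It is within NDUFAB1, 12042 bp from the start of that gene, whose log2 fold change was -0.02.

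Of these 6 SVAs, those of BRCA1, which fell in RNA, and PMS1, which did not pass, had H3K9me3 peaks in both doxycycline libraries and none without doxycycline. The same held for 136 of all 635 SVAs, or 21.4%. The PALB2 SVA had an H3K9me3 peak of 5.30 in doxycycline replicate 1 and none in any other library. At the BRCA1 SVA the peak fold enrichment was 12.9 and 3.90 in the doxycycline libraries, with no peak in the 3 others, and an OCT4 peak of 8.15 without doxycycline had no counterpart with it. That OCT4 peak covered the last 42 bp of the SVA, and its summit lay 384 bp beyond the end. Within 500 bp of this SVA, YY1 had a peak of 4.66 in no doxycycline replicate 2 and none in its other libraries. At the PMS1 SVA, H3K9me3 peaks of 3.80 and 5.45 and YY1 peaks of 5.61 and 6.81 were found in the doxycycline libraries, and neither mark had a peak there without doxycycline. With a -log10 q of at least 5, or with at least 50% of the SVA covered, BRCA1 alone kept this pattern.

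At the MSH6 SVA no H3K9me3 library had a peak. YY1 peaks were present there in all 4 libraries, at 4.06 and 6.67 without doxycycline and 6.86 and 10.3 with it, so both treated values lay above both controls. The YY1 summits lay 27 to 170 bp past the end of the SVA interval. OCT4 was at 8.98 without and 4.89 with doxycycline, in a treated library that held 23352 peaks in all against 50775. The RAD23B interval carried no peak itself. Within 500 bp of it, YY1 peaks stood at 8.65 and 6.27 without doxycycline and at 5.14 in doxycycline replicate 1, with none in replicate 2, while H3K9me3 peaks of 12.4 and 28.4 were found in replicate 1 of each condition and none in replicate 2. With 2 libraries of each condition, an exact test cannot go below a p of 0.33.

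**Figure D1:**
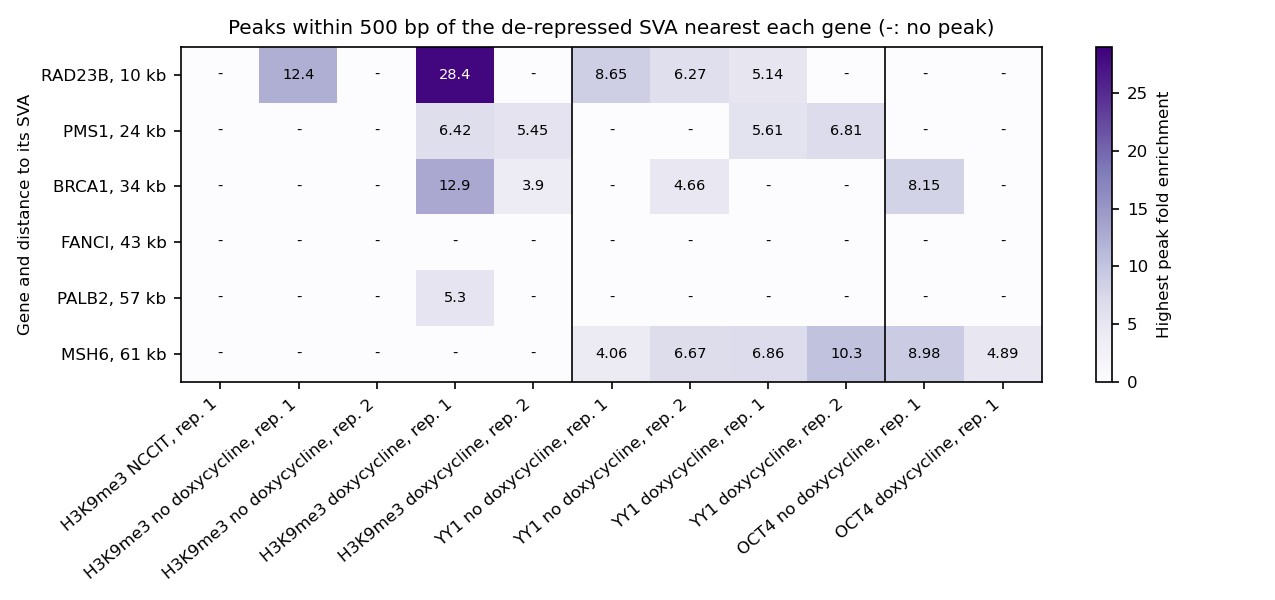
Highest fold enrichment of a peak within 500 bp of the de-repressed SVA nearest to each of the 6 members that have such an SVA within 100 kb, for every H3K9me3, YY1 and OCT4 library. A dash stands for no peak. H3K9me3 appears in both doxycycline libraries and in no other at PMS1 and BRCA1, and YY1 is present in all 4 libraries at MSH6.

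YY1 was found at the starts of nearly all repair genes. Within 500 bp of the start of transcription, 29 of 32 members had a YY1 peak in each library without doxycycline and 31 in each library with it, against 62.1% and 58.0% and then 66.1% and 67.0% of the other genes. The difference of 2 members had an exact permutation p of 0.33, the smallest possible here. OCT4 peaks were at 18 members without doxycycline (36.3% of other genes) and at 3 with it (3.28%), in single libraries. H3K9me3 peaks were at none of the 32 starts in any of 5 libraries, and at 1.48% to 3.52% of those of the other genes. None of the 6 genes that fell therefore had an H3K9me3 peak at its start.

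The strongest YY1 peaks among members were those of RAD23B, XPC, FANCA and ERCC4. Over all genes tested, RAD23B ranked 1747 by mean fold enrichment. The median of the members' peaks was 7.04 and 6.51 without doxycycline, against 8.06 and 8.49 for other genes. With doxycycline it was 7.56 and 7.43 against 8.57 and 9.12. At RAD23B the fold enrichment was 25.3 and 26.2 without doxycycline and 36.3 and 48.5 with it, and at FANCA 25.2 and 21.8 against 28.6 and 31.1. XPC stood at 23.3 and 34.5 against 28.8 and 43.3, and its conditions overlapped. Of the 32 members, 12 had both treated libraries above both controls, 37.5% of the list against 25.2% of all genes, and 0 had both below, against 2.32%. The treated YY1 libraries also held more peaks in all, 82005 and 115673 against 56370 and 76098, and the part of that in these values was not tested. BRCA1 and PALB2, which like FANCA fell in RNA, had peaks of 17.7 and 13.7 and of 15.6 and 14.4 without doxycycline. With doxycycline they stood at 25.3 and 17.4 and at 20.6 and 19.03. A YY1 peak thus overlapped the window of 500 bp around the start of these 3 genes in all 4 libraries. At BRCA1 its summit lay outside that window, 614 to 740 bp downstream of the start.

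The YY1 motif AANATGGC, searched on both strands from 250 bases before to 50 bases after the start, was present in 2 of the 32 members (6.25%) and in 9.25% of the other genes. In a wider window of 500 bases on either side of the start, 6 members (18.8%) held 9 matches, against 18.1% of the other genes. Of these 9 matches, the 3 within 50 bp of the YY1 summits of both libraries without doxycycline, a limit chosen after the values were seen, are shown with 30 bases in the direction of the gene, the motif in capitals, which reads as its reverse complement at XPC.
FANCA, chr16:89883152-89883181, minus strand: cccccaggaccAACATGGCcacgacgcaag
FANCD2, chr3:10068493-10068522, plus strand: tttccatctgcAAGATGGCtgataatggtt
XPC, chr3:14220347-14220376, minus strand: ctacgtcgtccGCCATGTTtcaaaccctgc
Counted from the summits of replicates 1 and 2 without doxycycline in the direction of the gene, the FANCA match was at -7 and -11 bp, the FANCD2 match at -11 and -4 bp and the XPC match at -6 and 31 bp. Counted from the start of transcription they lay at -111, 324 and -260 bp, so the matches of FANCD2 and XPC shown are outside the narrower window. RAD23B, with the highest mean YY1 fold enrichment among members, had no match within the window of 300 bases.

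The rest of the repair and replication machinery was taken from lists of related genes. Of 24 genes of S phase, when DNA is copied, 15 fell and none rose, with a median log2 fold change of -0.30 and a summed level of 1292 to 1372 TPM without doxycycline and 1023 to 1083 TPM with it. Among those of lowest p were the regulator E2F2 (-1.18 ± 0.10, SE) and the helicase subunit MCM4 (-1.23 ± 0.17), with edgeR adjusted p of 8.2e-05 and 0.0014. This list held 13 to 15 calls in each fit that left out a library, and its part in the lower values of the 6 repair genes was not tested. In the list of other homologous recombination genes, 7 of 21 fell and 3 rose. BARD1, the partner of BRCA1, fell by 0.72 from 47.9, 57.6 and 55.8 CPM to 30.7, 32.3 and 35.3 CPM (edgeR adjusted p of 0.00051), RAD54L fell by 0.32 (0.0067), and SWI5 rose by 0.41 (0.0040).

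Factors that copy DNA in repair had 3 of 15 called lower and 1 higher, with the polymerase clamp PCNA at -0.32, the polymerase subunits POLE at -0.32 and POLD4 at 0.60 on the log2 scale. Other nucleotide excision repair genes had 4 of 17 called higher and 1 lower, among them MNAT1 (0.39) and GTF2H5 (0.36), which like ERCC2 belong to TFIIH. Base excision repair genes had 4 of 18 higher and 1 lower, with NEIL3 (0.39), PARP2 (0.23) and MPG (0.35) the genes of lowest p. The excision lists thus held more rises than falls, and the recombination and S phase lists more falls than rises, beside 8.97% and 8.48% over all genes. Checkpoint genes had 2 of 16 lower (CLSPN at -0.30 and TOPBP1 at -0.29), and p53 target genes 2 of 16 tested lower (AEN at -0.42 and SESN2 at -0.39) and none higher. Of 13 Fanconi partners, 12 end joining genes and 7 translesion synthesis genes, none passed with edgeR. At an unadjusted p under 0.05 there were 4, 4 and 2 of them, and with DESeq2 1, 3 and 0 passed.

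Markers of the cell state were read in the same comparison. Of 12 markers of pluripotent cells, 6 fell and none rose, with TDGF1 at -1.13, L1TD1 at -0.62 and NANOG at -0.57 on the log2 scale, and their summed level was 1809 to 1995 TPM without doxycycline and 1388 to 1563 TPM with it. Of 21 markers of differentiated cells, 13 were tested and GATA6 (1.46) and MIXL1 (0.55) rose, or 15.4% against 8.97% of all genes. Both were low, with a highest value in any library of 1.07 TPM for GATA6 and 2.60 TPM for MIXL1. The median log2 fold change of the 13 was 0.38, and 3 of them had a value below 0. The summed level of the list was 122 to 158 TPM and 127 to 138 TPM, of which HAND1 gave 104 to 143 TPM and 110 to 121 TPM. Without HAND1 the sum was 14.3 to 18.3 TPM and 16.4 to 19.3 TPM. Of the 20 markers with transcripts in the files, SOX17, AFP and TBXT stayed below 0.1 TPM in every library. The part of these changes in the repair genes was not tested.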

How the data were processed

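RNA-seq of SCi-NCCITs (6 libraries) and ChIP-seq peak lists (11 libraries) were used. Per the methods, the authors deposited the expected counts (estimated counts) and TPM per transcript from kallisto, whose version and strand setting are not given in the sources used here, and peak lists made with BWA on hg19, filtered for mapping quality and duplicates and called in each library at a fixed false discovery rate. The deposited peak lists hold the fold enrichment as a ratio and p- and q-values as -log10. The deposited HiChIP table, with 12 columns per sample and 4 of coverage that could not be assigned to conditions, was not used. The peak lists give no depth.

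Estimated counts of 166506 of 188753 transcripts (88.2%) were matched to GENCODE v44lift37, summed per gene and rounded. CPM use TMM-scaled library sizes. Doxycycline was set against none by the quasi-likelihood test of edgeR 4.0.16 (R 4.3.3) after filterByExpr and TMM scaling, with Benjamini-Hochberg adjustment over all 16371 genes and a threshold of 0.05. edgeR and DESeq2 1.42.0 were tested on simulated data. Between libraries of the same condition, the mean squared deviation of counts was 8.42 to 17.2 times what counting error gives. No library was thus a copy of another in its condition. The 751 SVA intervals came from the study's supplement, and a peak was assigned to an SVA from an overlap of 1 bp on. Sequences were read from GRCh37 and the annotation's gene records, and all peaks on its assembled chromosomes ended within them. SVA ends were not checked in this way.

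The members and all lists were chosen with earlier results of these data known. All members are named, with full statistics for FANCA, RAD23B, MSH6 and the called members. From each other list up to 3 genes with the lowest adjusted p under 0.05 are named, with ZNF10, POU5F1, SOX2 and NANOG as checks, and the genes nearest to SVAs were chosen after their values were seen. Some genes that this rule names, and some sequences, are not reported here. Alternatives were DESeq2, its size factors, no filter, at least 10 counts in every library, a replicate block, length-scaled counts and leaving out each library. Peak results were repeated with a minimum -log10 q of 5, the start of the gene record, 1000 bp around the start, the summit within 500 bp, SVAs extended by 500 bp, 50% of the SVA covered and leaving out each replicate.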

Additional observations from a re-analysis of the deposited data

How the results depend on the processing

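The 7 members called, 6 of them lower, became 4 and 3 with length-scaled counts, and 2 to 8 and 1 to 7 when a library was left out. Over all genes, 2858 calls became 1878 with length-scaled counts and 1396 to 3259 when a library was left out, and the 43 calls of the pathway lists became 25 to 48. The other settings kept these counts within 1.5 times. Same-numbered libraries deviated together with a correlation of 0.13, 0.08 and -0.00094 across genes, and these values do not settle whether the numbers pair the samples. Replicates 1 and 2 of each condition correlated best with their own number, and replicate 3 did not. The replicate block gave 8 called members, 7 of them lower, with BRIP1 added (edgeR adjusted p of 0.040), and 3316 calls over all genes. No member reversed its direction past the threshold. The 2 SVAs that gained H3K9me3 became 1 with a -log10 q of at least 5 and 1 with 50% of the SVA covered. The difference of 2 members with a YY1 peak became 0.5 from the start of the gene record or within 1000 bp and 5 at a -log10 q of at least 5. The cause of these changes was not tested. In the main edgeR fit, no member with a log2 change smaller in size than 0.26 passed. Among the alternative fits, ERCC2 passed with a log2 change as small as 0.21. No doxycycline replicate 1 had the fewest counts, and without it 8 members were called.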

Other observations

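Shares of transcripts within members are described here for genes picked after their values were seen and without a test. The most abundant FANCD2 transcript, FANCD2-202, held 65.1%, 49.5% and 51.3% of the gene's estimated counts without doxycycline and 29.2%, 23.7% and 39.7% with it. FANCD2-203, annotated as a target of nonsense-mediated decay, held 11.1%, 18.8% and 18.6% against 50.2%, 51.3% and 31.1%. The gene as a whole did not pass the test, so the shift is not visible in its summed counts. The most abundant BRCA1 transcript, BRCA1-203, held 69.1%, 75.0% and 66.9% against 58.1%, 60.8% and 66.7%. The share of the most abundant transcript was lower in all treated libraries for 3 of the 31 members with several transcripts, or 9.68%, and higher for 0. The 3 members are FANCD2, BRCA1 and RAD51D. Over all 14450 genes with several transcripts this share was lower for 7.76% and higher for 7.44%, so the count of members with a lower share is near that of all genes. Assignments of reads between overlapping transcripts are estimates, and these values carry that uncertainty.

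Doxycycline replicate 1 was the lowest of the 3 treated libraries for 16 of the 32 members, replicate 2 for 6 and replicate 3 for 10. Among the S phase genes replicate 1 was lowest for 15 of 24 (62.5%), and among all genes for 34.6%. BRCA1, BRCA2 and FANCM show this most plainly in the plot of the members by library.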
